A study of Mus musculus with 20 samples.

Results

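The chromatin of 10 cell cycle genes was examined in Lin- bone marrow cells: the CDK inhibitors Cdkn1a, Cdkn1b, Cdkn1c, Cdkn2a, Cdkn2b, Cdkn2c, and Cdkn2d, and the D cyclins Ccnd1, Ccnd2, and Ccnd3. They were taken by name from the 21938 protein-coding genes of the GENCODE mouse annotation, and each locus was the gene body with 20 kb on either side. Of the 591292 peaks in the 12 lists of H3K27ac, H3K4me1, and H3K4me3 ChIP-Seq, 711 lay in these loci. Each mark was profiled with 1 library in each of 4 genotypes. All mice carried floxed Ep300 alleles (Ep300fl/fl) on a C57BL/6 background and received poly(I:C). WT mice had no Cre. In Ep300Δ/Δ mice, Mx1-Cre deleted Ep300, which encodes the lysine acetyltransferase p300; this Cre is driven by an interferon-inducible promoter and acts in blood cells and in other tissues that respond to interferon. Tet2-/- mice lacked Tet2 in the germline, and Ep300Δ/ΔTet2-/- mice carried both changes. Per the study's methods, poly(I:C) was given to young adult mice. Lin- cells were a depleted fraction of mixed progenitors.

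D cyclins bind CDK4 and CDK6 in early G1, and the resulting kinases phosphorylate the retinoblastoma protein, which releases E2F factors for entry into S phase. The INK4 proteins, encoded by Cdkn2a, Cdkn2b, Cdkn2c, and Cdkn2d, bind CDK4 and CDK6 directly, whereas the CIP/KIP proteins p21, p27, and p57, encoded by Cdkn1a, Cdkn1b, and Cdkn1c, bind complexes of cyclin and CDK. In blood progenitors these genes bear on quiescence and proliferation. H3K27ac, the mark that p300 and CBP write, is found at active promoters and enhancers, H3K4me3 at promoters, and H3K4me1 at enhancers and around promoters.

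The sequences below are shown because they lie at regions whose H3K27ac differed between lists, at the intronic Ccnd3 region that all lists shared, or where one gene uses starts with different marks. They were read from the GRCm38 (mm10) genome, forward strand for peak summits and the gene's strand for starts. In the first group, each is 200 bases centered on the summit of the region's strongest H3K27ac peak, and capitals mark CpG dinucleotides.

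Cdkn1a region downstream of the internal start, chr17:29094953-29095152: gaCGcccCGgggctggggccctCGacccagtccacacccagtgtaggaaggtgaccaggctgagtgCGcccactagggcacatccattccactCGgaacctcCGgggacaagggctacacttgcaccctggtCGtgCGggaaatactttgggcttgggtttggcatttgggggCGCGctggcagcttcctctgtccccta
9630013D21Rik promoter near Cdkn2c, chr4:109657430-109657629: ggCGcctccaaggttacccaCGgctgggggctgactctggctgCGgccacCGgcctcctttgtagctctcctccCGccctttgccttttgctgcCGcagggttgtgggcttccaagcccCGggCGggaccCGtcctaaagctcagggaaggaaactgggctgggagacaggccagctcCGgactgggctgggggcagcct
Ccnd3 intronic region, chr17:47522003-47522202: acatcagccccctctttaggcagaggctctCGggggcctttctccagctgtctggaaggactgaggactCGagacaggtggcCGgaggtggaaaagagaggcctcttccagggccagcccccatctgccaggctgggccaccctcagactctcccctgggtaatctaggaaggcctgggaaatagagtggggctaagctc
Med20 intronic region near Ccnd3, chr17:47617456-47617655: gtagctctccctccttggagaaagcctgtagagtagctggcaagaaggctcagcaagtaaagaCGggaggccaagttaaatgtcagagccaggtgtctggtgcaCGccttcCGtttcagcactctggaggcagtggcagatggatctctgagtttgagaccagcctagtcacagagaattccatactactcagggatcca

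These windows held 10, 10, 3, and 3 CpG dinucleotides in the order given. None held a match, on either strand, to 7 consensus words that were searched: TGANTCA for AP-1, AGATAA for GATA factors, AACCACA for RUNX factors, GAGGAAGT for PU.1, TTGCNNAA for C/EBP, TAACNG for MYB, and TTNGCGC for E2F. Among the 29659 windows of the same length around WT H3K27ac summits, the share with a match ranged from 1.47% for the PU.1 word to 16.0% for the MYB word.

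In the second group, each is the 100 bases before an annotated start of Cdkn1a or Cdkn2a.

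Cdkn1a upstream start, chr17:29090879-29090978: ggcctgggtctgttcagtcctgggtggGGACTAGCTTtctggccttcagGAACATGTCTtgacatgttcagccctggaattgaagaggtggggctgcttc
Cdkn1a internal start, chr17:29093669-29093768: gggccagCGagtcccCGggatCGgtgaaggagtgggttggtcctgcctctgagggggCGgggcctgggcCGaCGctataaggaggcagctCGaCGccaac
Cdkn2a start of the Arf transcript, chr4:89294654-89294753: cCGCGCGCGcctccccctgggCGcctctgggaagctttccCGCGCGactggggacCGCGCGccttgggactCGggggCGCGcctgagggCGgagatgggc
Cdkn2a start of the Ink4a transcript, chr4:89282193-89282292: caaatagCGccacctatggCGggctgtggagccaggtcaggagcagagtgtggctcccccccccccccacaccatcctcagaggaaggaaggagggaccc

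In the upstream Cdkn1a stretch, capitals mark 2 matches to the p53 decamer, the short element bound by the p53 tumor suppressor, a known activator of Cdkn1a. This motif was chosen after the sequence was seen; at least 1 match was present before 2.42% of the first starts of coding genes, in windows of the same length, and at least 2 before 0.0137% (3 of 21938). In the other stretches capitals mark CpG dinucleotides, of which there were 8 before the internal Cdkn1a start, 15 before the Arf start, 2 before the Ink4a start, and 0 before the upstream Cdkn1a start. Within 500 bp of each start, the ratio of observed to expected CpG was 0.13 at the upstream start of Cdkn1a and 0.62 at its internal start, and 0.98 at the Arf start and 0.54 at the Ink4a start, against a median of 0.55 over 21922 coding genes.

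Over the whole lists, H3K27ac gave 29659 peaks in WT, 22727 in Ep300Δ/Δ, 24539 in Tet2-/-, and 18327 in Ep300Δ/ΔTet2-/-, while the H3K4me1 lists held 90738 to 107392 and the H3K4me3 lists 25012 to 27807. Depth is not known from peak lists, and fold enrichment over H3 is not comparable between lists as an amount. Strength is therefore given as a percentile: the share of peaks in the same list with a lower fold enrichment than the strongest peak of the region. Markers of progenitors had an H3K27ac promoter peak for 4 to 5 of 6 genes in every list, with Kit, Flt3, and Meis1 in all of them. Erythroid markers had one for 2 to 3 of 3, T cell markers for 1 of 3 (Cd3d), B cell markers for 0 to 1 of 3, and stromal and endothelial markers for 0 to 2 of 3. Granulocyte and monocyte markers had one for 3 of 4 genes in 3 lists and for 1 of 4 in Ep300Δ/ΔTet2-/-, where Elane and Csf1r had none. On chromosome Y, the Ep300Δ/Δ lists held 0 H3K27ac and 1 H3K4me3 peaks, and the other genotypes held 4 H3K27ac peaks and 6 to 7 H3K4me3 peaks each; the part of these differences in the results was not tested. A mark removed in a share of the cells and a mark lowered in all of them cannot be told apart in such bulk samples. Since each genotype had a single library for a mark, replicate spread is unknown and genotypes were not tested against each other. The 95% intervals (exact, Clopper-Pearson) cover counting error only.

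All 10 genes had an H3K4me3 peak within 3000 bp of a start in every genotype, whereas H3K27ac divided them. Cdkn1b, Cdkn2c, Cdkn2d, Ccnd2, and Ccnd3 had a promoter H3K27ac peak in all 4 lists, Cdkn1a had one in all lists but Ep300Δ/ΔTet2-/-, and Cdkn1c, Cdkn2a, Cdkn2b, and Ccnd1 had none in any list. Thus 4 of 10 genes carried H3K4me3 in every genotype and H3K27ac in none, a state found at 11.2% of all coding genes. For H3K27ac alone the split was near that of all coding genes, of which 40.0% had a promoter peak in all 4 lists and 49.5% in none, and 60.1% had H3K4me3 in all 4. A list of 22 other cell cycle genes (CDKs, E-, A-, and B-type cyclins, the Rb and E2F families, Trp53, Mdm2, and others) held 0 genes in that state. Across the loci, the 4 H3K27ac lists merged into 39 regions, of which 20 were present in all 4 lists (51.3%, against 35.5% of all merged regions) and 12 in a single list (30.8%, against 37.7%). Of these 12, 5 were in WT alone (12.8%, against 21.1%). Own promoters held 18 regions, promoters of neighboring genes 13, and sequence outside promoters 8.

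Cdkn1a encodes p21, the CIP/KIP inhibitor induced by p53. Its body spans chr17:29090976-29100727, with 5 annotated starts in 3 places. The upstream starts had no peak of any mark within 500 bp in any list. The marks lay instead at and downstream of the internal start 2793 bp away. There H3K27ac formed 1 merged region, 4.09 kb from the first start at its middle, that covered 1680 bp in WT, 1616 bp in Tet2-/-, and 246 bp in Ep300Δ/Δ, and was absent from Ep300Δ/ΔTet2-/-. Its highest fold enrichment over H3 stood at the 85.8 percentile of all peaks in the WT list, at the 28.6 percentile in Tet2-/-, and at the 16.9 percentile in Ep300Δ/Δ. The WT and Tet2-/- peaks reached within 500 bp of the internal start, whereas the Ep300Δ/Δ peak began 4.025 kb from the first start and did not. The region was thus shorter or absent in both genotypes that lacked Ep300, and weaker within its list in Tet2-/- at nearly the same length. Loss was common among regions of such strength: between the 20 and 30 percentiles, 66.3% of all Tet2-/- regions were lost in Ep300Δ/ΔTet2-/-. H3K4me3 at the same start remained in every list, with 2441 bp in WT, 2329 bp in Ep300Δ/Δ, 2424 bp in Tet2-/-, and 1852 bp in Ep300Δ/ΔTet2-/-. When only peaks with -log10 q of at least 5 were used, and also when all lists were cut to 18327 peaks, the acetylated region was present in WT and Tet2-/- and in neither genotype without Ep300.

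**Figure D1:**
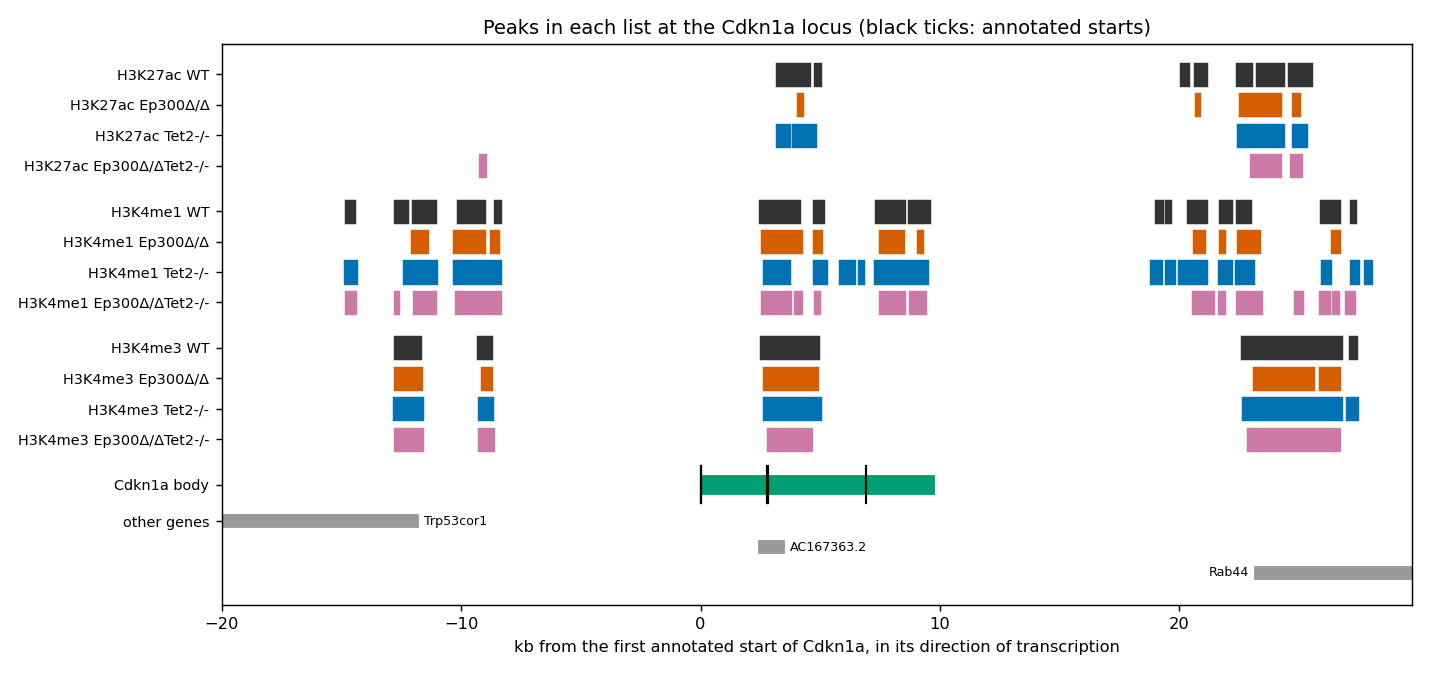
Peaks of 3 marks in 4 genotypes at the Cdkn1a locus, drawn as bars along the distance in kb from the first annotated start; rows are lists of 1 library each, the green bar is the gene body, black ticks are its starts, and gray bars are other genes. In the region downstream of the internal start, H3K27ac covers 1680 bp in WT and 246 bp in Ep300Δ/Δ and is missing from Ep300Δ/ΔTet2-/-, whereas H3K4me3 is present in all 4 rows.

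Most other acetylated sequence in the Cdkn1a window belonged to Rab44, a downstream neighbor. The region at its promoter 23.4 kb from the first Cdkn1a start was present in all lists, at percentiles from 78.1 to 87.3. A region 20.9 kb from the start was at the 70.5 percentile in WT and the 4.76 percentile in Ep300Δ/Δ, and was absent from both lists of Tet2-null cells. A 285 bp H3K27ac region at -9.12 kb was present only in Ep300Δ/ΔTet2-/-, at the 13.3 percentile. It lay within 3000 bp of a start of Trp53cor1 (the lincRNA-p21 gene), and was not among the peaks with -log10 q of at least 5. Lists of equal size could not remove it, because the Ep300Δ/ΔTet2-/- list, with 18327 peaks, was the shortest and stayed uncut. In all, H3K27ac covered 5413 bp of the window in WT, 2544 bp in Ep300Δ/Δ, 4202 bp in Tet2-/-, and 2101 bp in Ep300Δ/ΔTet2-/-. The log2 ratio was -1.09 from WT to Ep300Δ/Δ, and the length from Tet2-/- to Ep300Δ/ΔTet2-/- was exactly 2-fold lower, at the limit used here. The median log2 ratios over all coding genes were -0.49 and -0.21.

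Cdkn1b encodes p27, a CIP/KIP inhibitor associated with quiescence. Its promoter region (chr6:134919623-134922827) was acetylated in every list, over 2917 bp in WT, 2866 bp in Ep300Δ/Δ, 2421 bp in Tet2-/-, and 3012 bp in Ep300Δ/ΔTet2-/-, at percentiles of 93.5, 93.4, 76.1, and 88.5. Acetylation at the downstream noncoding gene Lockd was as broad, with 3534 to 4034 bp and percentiles of 90.8 to 94.5. Every merged H3K27ac region of the locus that was present in WT was present in the other 3 lists. One of them, 12.7 kb from the start, stood at the 72.9 percentile in WT, 6.67 in Ep300Δ/Δ, 42.3 in Tet2-/-, and 67.6 in Ep300Δ/ΔTet2-/-, and was missing from Ep300Δ/Δ alone both among peaks with -log10 q of at least 5 and in lists of equal size. A region at -3.42 kb, whose edge lay just beyond the promoter limit, was absent from WT, covered 332 bp in Ep300Δ/Δ at the 6.67 percentile, 423 bp in Tet2-/- at the 55.1 percentile, and 777 bp in Ep300Δ/ΔTet2-/- at the 52.1 percentile. H3K4me3 overlapped it in all 4 lists, over 1151 to 1279 bp. A region in Lockd 10.5 kb from the start had the same pattern, at percentiles of 31.9 to 35.9 where present. Among peaks with -log10 q of at least 5, both regions were present in Tet2-/- and Ep300Δ/ΔTet2-/- alone; in lists of equal size this held for the region at -3.42 kb, and that at 10.5 kb was present in Ep300Δ/Δ and Ep300Δ/ΔTet2-/- alone. Covered H3K27ac at the locus was 7307 bp in WT, 7856 bp in Ep300Δ/Δ, 7422 bp in Tet2-/-, and 9220 bp in Ep300Δ/ΔTet2-/-, and so was not lower where Ep300 was deleted.

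Cdkn1c encodes p57, an imprinted CIP/KIP inhibitor that is expressed in quiescent stem cells. No H3K27ac peak lay in its window in any list. Its promoter had a small H3K4me3 region of 623 bp in WT, 464 bp in Ep300Δ/Δ, 356 bp in Tet2-/-, and 385 bp in Ep300Δ/ΔTet2-/-, at percentiles from 16.8 to 31.7. An H3K4me1 region at the same place was present in all lists but Tet2-/-, and another at -2.85 kb in all lists but Ep300Δ/Δ.

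Cdkn2a and Cdkn2b lie side by side on chromosome 4 and share part of their windows. Cdkn2a encodes the CDK inhibitor p16 from its Ink4a start and, in another reading frame, the p53 activator p19ARF from the Arf start, and Cdkn2b encodes p15. Neither gene had H3K27ac in any list. The Arf start carried H3K4me3 over 1670 bp in WT, 1513 bp in Ep300Δ/Δ, 1802 bp in Tet2-/-, and 1415 bp in Ep300Δ/ΔTet2-/-, at percentiles of 89.4, 69, 90.2, and 52.8. The Ink4a start, 12461 bp downstream, had no H3K4me3 within 500 bp in any list, but had an H3K4me1 peak in all 4. The Cdkn2b start carried H3K4me3 over 936, 896, 971, and 655 bp in the order WT, Ep300Δ/Δ, Tet2-/-, and Ep300Δ/ΔTet2-/-. H3K4me1 at Cdkn2b covered 680 bp in WT, 548 bp in Ep300Δ/Δ, and 426 bp in Tet2-/-, and was absent from Ep300Δ/ΔTet2-/-. The 2 starts with H3K4me3 in every list thus differed from the Ink4a start in H3K4me3, which marked the same starts in all genotypes. The Arf start, like the Ink4a start, also had an H3K4me1 peak within 500 bp in all 4 lists.

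Cdkn2c encodes the INK4 protein p18. H3K27ac at its promoter formed 2 regions present in all lists. The wider one (chr4:109664900-109666730) covered 1760 bp in WT, 1756 bp in Ep300Δ/Δ, 1698 bp in Tet2-/-, and 1681 bp in Ep300Δ/ΔTet2-/-, at percentiles from 85.7 to 93.1. An additional 288 bp region in the gene, 3.002 kb from the first start, was present only in Ep300Δ/ΔTet2-/-, at the 49 percentile. The gained H3K27ac region with the highest percentile among the 10 loci lay 9.68 kb downstream of the first start, at the promoter of the noncoding gene 9630013D21Rik. There H3K27ac was absent from WT and Tet2-/-, covered 693 bp in Ep300Δ/Δ at the 46.5 percentile, and covered 1118 bp in Ep300Δ/ΔTet2-/- at the 73.1 percentile. Only 1.34% of the Ep300Δ/ΔTet2-/- regions between the 70 and 80 percentiles of the list were gained over Tet2-/-. Of all 35252 merged regions, 0.732% were present in both Ep300-deleted lists and in neither control. H3K4me3 was present at this promoter in all 4 lists, over 1659, 1981, 1626, and 2069 bp in the order WT, Ep300Δ/Δ, Tet2-/-, and Ep300Δ/ΔTet2-/-. The pattern was the same among peaks with -log10 q of at least 5 and in lists of equal size. Covered H3K27ac in the window was 3029 bp in WT, 3690 bp in Ep300Δ/Δ, 3414 bp in Tet2-/-, and 4816 bp in Ep300Δ/ΔTet2-/-. The log2 ratios of 0.28 from WT to Ep300Δ/Δ and 0.50 from Tet2-/- to Ep300Δ/ΔTet2-/- exceeded those of 96.9% and 94.2% of the coding genes compared. In the gene body alone, H3K27ac covered 2091 bp in WT, 2087 bp in Ep300Δ/Δ, 2024 bp in Tet2-/-, and 2313 bp in Ep300Δ/ΔTet2-/-. The rise from WT to Ep300Δ/Δ thus lay at the 9630013D21Rik promoter.

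Cdkn2d encodes the INK4 protein p19. Its promoter, which also lies within the promoter limit of Kri1, carried 2 H3K27ac regions in every list, at percentiles from 79.7 to 97.5. H3K4me3 spanned both as 1 peak of 5638 bp in WT, 5440 bp in Ep300Δ/Δ, 5615 bp in Tet2-/-, and 5576 bp in Ep300Δ/ΔTet2-/-, wider than 99.9% of the peaks in each list. Covered H3K27ac was 3689 bp in WT, 3435 bp in Ep300Δ/Δ, 3184 bp in Tet2-/-, and 2739 bp in Ep300Δ/ΔTet2-/-. No H3K27ac region of this locus was lost or gained between any of the genotypes compared.

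The D cyclins differed from one another in how much of their sequence was acetylated, in the order Ccnd3, Ccnd2, and Ccnd1 in every list. The gene body of Ccnd3 had 9370 bp of H3K27ac in WT, that of Ccnd2 had 2745 bp, and that of Ccnd1 had none.

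**Figure D2:**
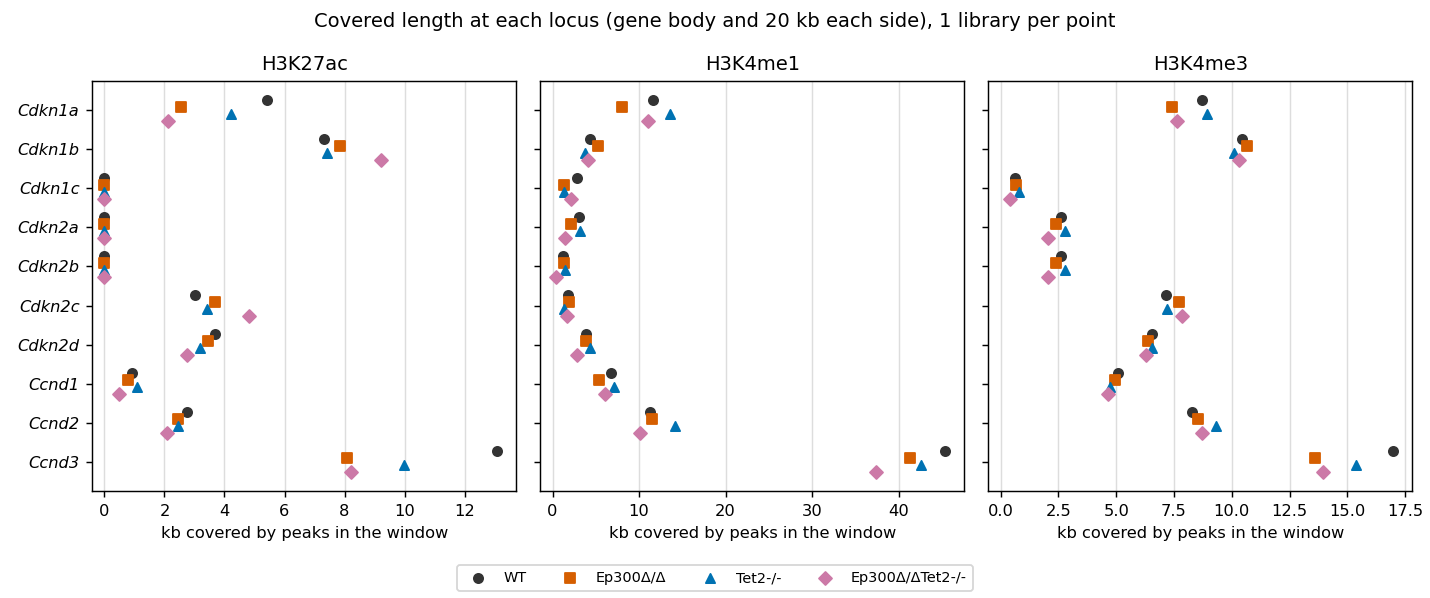
Length covered by peaks of each mark (kb) in the window of each gene, with 1 point per genotype (1 library each). Ccnd3 has the most covered H3K27ac in WT (13071 bp), Cdkn1a is lower in the genotypes that lack Ep300, and Cdkn1c, Cdkn2a, and Cdkn2b sit at 0 for H3K27ac while keeping H3K4me3.

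Ccnd1 encodes cyclin D1, which is used in many epithelial tissues. The gene had no H3K27ac at its promoter or in its body in any list. Its promoter carried H3K4me3 peaks of 2193, 2190, 2141, and 2141 bp in the order WT, Ep300Δ/Δ, Tet2-/-, and Ep300Δ/ΔTet2-/-, and H3K4me1 in 5 promoter regions in every list. The single H3K27ac region of the window lay 24.6 kb downstream at the promoter of LTO1 and covered 929 bp in WT, 801 bp in Ep300Δ/Δ, 1086 bp in Tet2-/-, and 475 bp in Ep300Δ/ΔTet2-/-. The fall from Tet2-/- to Ep300Δ/ΔTet2-/-, a log2 ratio of -1.19, was thus measured at the promoter of a neighbor. Over a narrower window of 10 kb, Ccnd1 had no H3K27ac. In the body, H3K4me1 regions 7.15 and 7.90 kb from the start were present in all lists but Ep300Δ/Δ; the first was at the 94.5 percentile in WT, and 5.93% of WT regions above the 90 percentile were lost in Ep300Δ/Δ.

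Ccnd2 encodes cyclin D2, which is induced by cytokines in blood cells. Its H3K27ac was limited to the promoter, where 2 regions were present in all lists. The wider one (chr6:127149188-127151048) covered 1828 bp in WT, 1837 bp in Ep300Δ/Δ, 1775 bp in Tet2-/-, and 1722 bp in Ep300Δ/ΔTet2-/-. The region at the first start covered 422, 371, 674, and 373 bp in the same order, and its percentile was 49.8 in WT, 18.3 in Ep300Δ/Δ, 69.5 in Tet2-/-, and 24.4 in Ep300Δ/ΔTet2-/-. Both genotypes without Ep300 thus had a lower percentile within their own list than both with it. Among peaks with -log10 q of at least 5, and also in lists of equal size, the region was missing from Ep300Δ/Δ alone. A 514 bp region between the 2 shared regions was present only in WT, and a 246 bp region at -0.54 kb only in Ep300Δ/Δ at the 10.6 percentile. Neither remained in lists of equal size, and only the 514 bp region remained among peaks with -log10 q of at least 5. H3K4me3 covered 6964 bp around the start in WT, 7005 bp in Ep300Δ/Δ, 7372 bp in Tet2-/-, and 7299 bp in Ep300Δ/ΔTet2-/-. H3K4me1 regions at 8.61 kb in the body and at -11.3, -13.6, and -14.3 kb were present in all lists, none with H3K27ac.

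Ccnd3 encodes cyclin D3, used by erythroid and lymphoid precursors among others, and it had the richest locus. Its H3K27ac window total was 13071 bp in WT, 8081 bp in Ep300Δ/Δ, 9983 bp in Tet2-/-, and 8208 bp in Ep300Δ/ΔTet2-/-. The log2 ratios were -0.69 from WT to Ep300Δ/Δ and -0.28 from Tet2-/- to Ep300Δ/ΔTet2-/-, beside medians of -0.49 and -0.21 over all coding genes. Acetylation was present in every list at the Taf8 promoter (-3.16 kb), at the first start, at 3.06 kb, at an intronic region 17.5 kb from the start, at internal starts around 90.1 kb, and at the Bysl and Med20 promoters. Of these, the region at the first start stood at the 57.9 percentile in WT, 16.2 in Ep300Δ/Δ, 49.3 in Tet2-/-, and 0.18 in Ep300Δ/ΔTet2-/-, again lower in both genotypes without Ep300. Its covered length moved less, with 1147, 983, 1220, and 1018 bp. Among peaks with -log10 q of at least 5 it was present in WT and Tet2-/- alone, and in lists of equal size it was present in all 4. The region at 3.06 kb covered 1190 bp in WT, 479 bp in Ep300Δ/Δ, 688 bp in Tet2-/-, and 416 bp in Ep300Δ/ΔTet2-/-, with percentiles of 85.3, 66.2, 75.5, and 50.

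**Figure D3:**
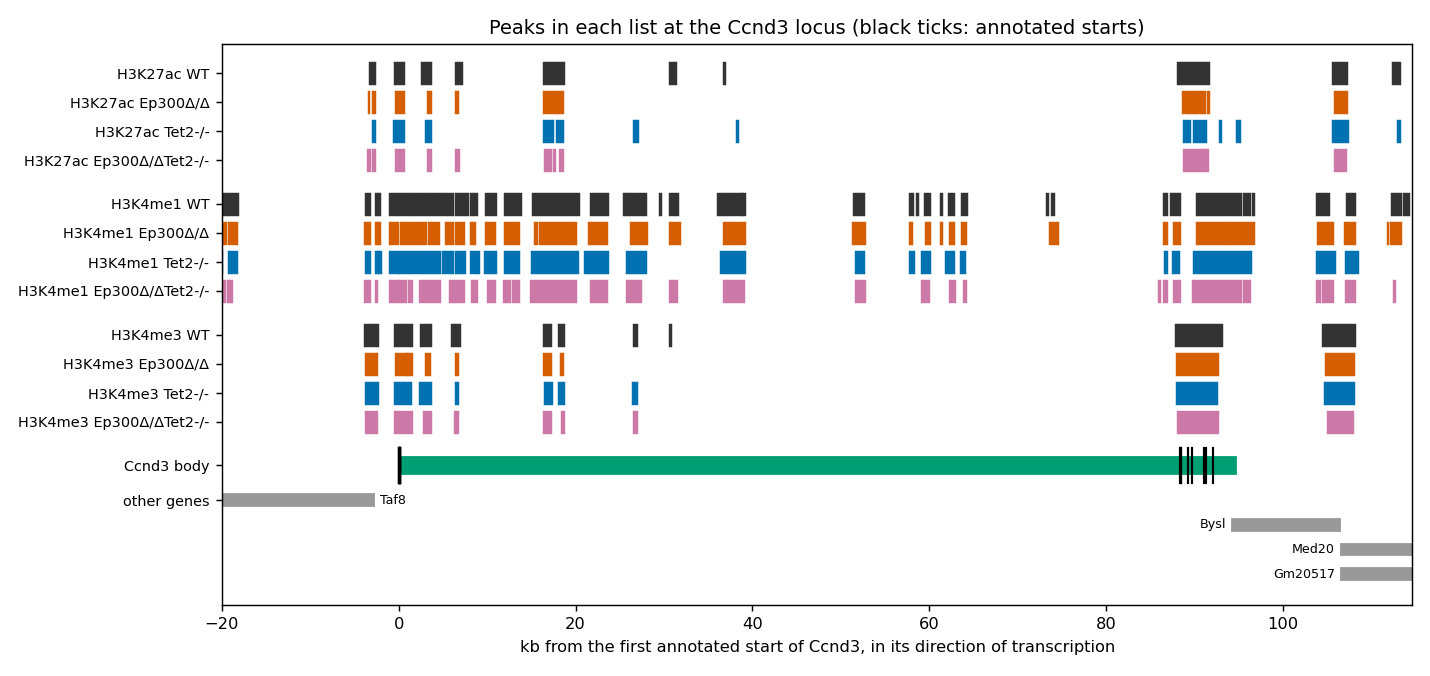
Peaks of 3 marks in 4 genotypes at the Ccnd3 locus along the distance in kb from the first annotated start, 1 library per row; the green bar is the gene body, black ticks are starts, and gray bars are other genes. The intronic region 17.5 kb from the start is acetylated in all 4 rows, and the region 113 kb from the start only in WT and Tet2-/-.

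The intronic region 17.5 kb from the start (chr17:47521319-47523710) was the only acetylated region outside promoters that all lists shared. It covered 2392 bp as 1 peak in WT, 1950 bp as 3 peaks in Ep300Δ/Δ, 1984 bp as 2 peaks in Tet2-/-, and 1534 bp as 4 peaks in Ep300Δ/ΔTet2-/-. It lay within an H3K4me1 region of 4494 to 5372 bp whose percentile was 99.3 to 99.9 in every list. A region 113 kb from the start, in an intron of Med20, was acetylated over 820 bp in WT at the 54.8 percentile and over 322 bp in Tet2-/- at the 36.9 percentile, and in neither genotype without Ep300. This pattern was kept among peaks with -log10 q of at least 5, but in lists of equal size the region was present in WT alone. Between the 50 and 60 percentiles, 36.5% of WT regions were lost in Ep300Δ/Δ, and between the 30 and 40 percentiles, 58.9% of Tet2-/- regions were lost in Ep300Δ/ΔTet2-/-. The region at 6.75 kb was missing only from Tet2-/-, and stood at the 58 percentile in WT, 20 in Ep300Δ/Δ, and 1.39 in Ep300Δ/ΔTet2-/-. This pattern was kept in lists of equal size, but among peaks with -log10 q of at least 5 the region was present in WT alone. Further regions in the gene or just past its end were in 1 list each: 3 in WT (31.0, 36.8, and 88.2 kb, percentiles 19 to 35.8) and 4 in Tet2-/- (26.8, 38.3, 92.9, and 94.9 kb, percentiles 15 to 24.1). None of these 7 remained when the lists were cut to equal size, whereas 6 of them, all but that at 38.3 kb, kept their pattern among peaks with -log10 q of at least 5. H3K4me1 outside promoters of the Ccnd3 window numbered 25 regions in WT, 20 in Ep300Δ/Δ, 16 in Tet2-/-, and 16 in Ep300Δ/ΔTet2-/-.

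Among the 20 H3K27ac regions present in all lists, the percentile was lower in Ep300Δ/Δ than in WT for 15, and lower in Ep300Δ/ΔTet2-/- than in Tet2-/- for 10. Over all 12528 regions shared by the 4 lists, 65.7% and 65.2% were lower. The count was as high for Tet2 loss, with 15 of 20 lower in Tet2-/- than in WT and 14 of 20 lower in Ep300Δ/ΔTet2-/- than in Ep300Δ/Δ, against 59.9% and 60.2% of all. By gene group, 8 of 9 regions at D cyclin loci and 7 of 11 at inhibitor loci were lower from WT to Ep300Δ/Δ, and 8 of 9 and 2 of 11 were lower from Tet2-/- to Ep300Δ/ΔTet2-/-. Thus 7 of 9 and 1 of 11 were lower in both, against 43.9% of all shared regions, and the groups of loci differed mainly in the Tet2-null background. Most regions at inhibitor loci were at promoters of neighbors, such as Rab44 and Lockd, and most at D cyclin loci were in the Ccnd3 window. The split is therefore one between windows and not between the genes themselves. The regions share a library and often a locus, and this split was noticed in the data and was not tested.

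**Figure D4:**
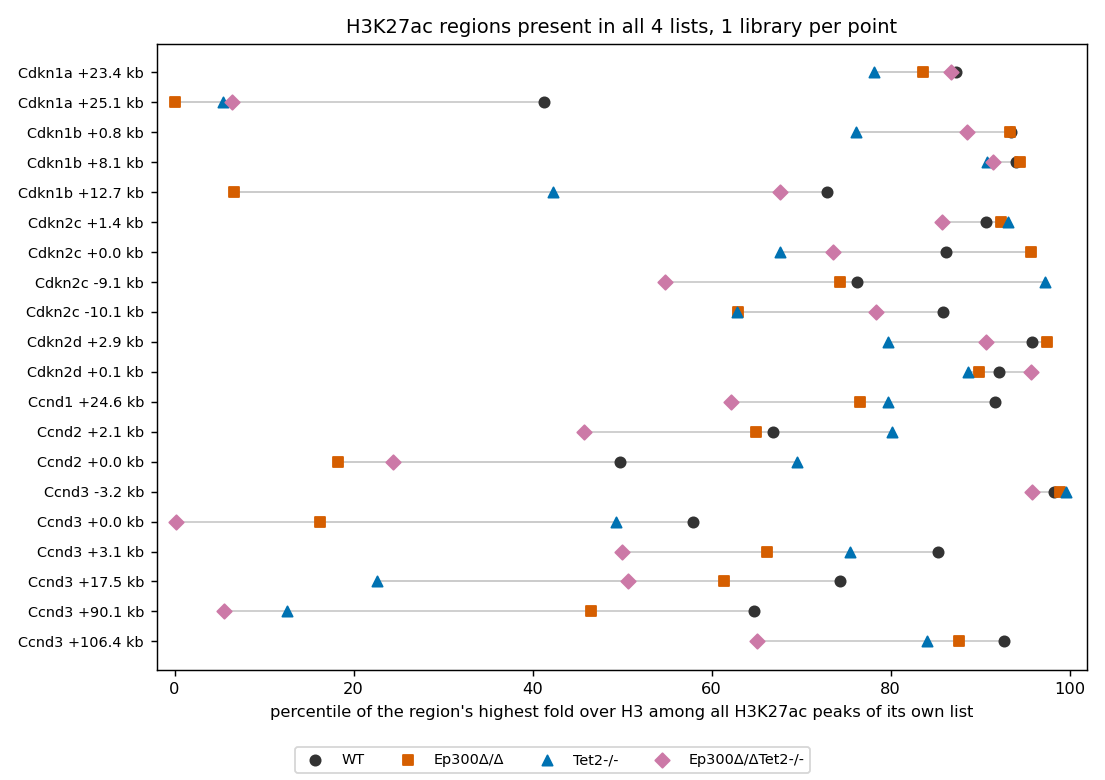
Percentile of the highest fold enrichment over H3 within its own list, for the 20 H3K27ac regions present in all 4 lists, labeled by gene and distance of the middle from the first start; points are genotypes, 1 library each. The region at the first start of Ccnd3 falls from 57.9 in WT and 49.3 in Tet2-/- to 16.2 and 0.18 where Ep300 was deleted, and the Cdkn2c and Cdkn2d promoter regions range from 67.6 to 97.5.

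Over the 10 loci, loss and gain of H3K27ac were counted between pairs of lists that were merged. From WT to Ep300Δ/Δ, 7 of 36 regions were lost (19.4%, 95% interval 8.19 to 36.0), where 39.7% of all regions were lost, and 5 of 34 were gained (14.7%, 4.95 to 31.1), where 12.8% of all were gained. From Tet2-/- to Ep300Δ/ΔTet2-/-, 7 of 33 were lost (21.2%, 8.98 to 38.9), against 37.8% of all regions, and 6 of 32 were gained (18.8%, 7.21 to 36.4), against 15.0%. These counts share no library. In WT and Tet2-/- the regions of the 10 loci were stronger than most, with median percentiles of 74.3 and 60.4, against 50 and 49.8 over all regions. In Ep300Δ/Δ and Ep300Δ/ΔTet2-/- their medians were 50.7 and 50, against 50 over all regions in each. Loss was rarer among strong regions (78.6% of WT regions below the 10 percentile were lost in Ep300Δ/Δ, and 36.5% between the 50 and 60 percentiles). The part of this in the lower shares was not tested. All 7 regions lost from WT to Ep300Δ/Δ were at Ccnd3 (4), Cdkn1a (2), and Ccnd2 (1), and those lost from Tet2-/- to Ep300Δ/ΔTet2-/- were at Ccnd3 (5) and Cdkn1a (2). The lost regions stood between the 2.12 and 54.8 percentiles in WT and between the 15 and 36.9 percentiles in Tet2-/-. At Cdkn1a, the WT peak of 279 bp downstream of the internal start counted as lost in Ep300Δ/Δ, whereas the longer WT peak beside it overlapped the 246 bp Ep300Δ/Δ peak and counted as shared. The gained regions from WT to Ep300Δ/Δ were at Cdkn1b (2), Cdkn2c (2), and Ccnd2 (1), and those from Tet2-/- to Ep300Δ/ΔTet2-/- were at Cdkn2c (3), Ccnd3 (2), and Cdkn1a (1). Some of these lay at promoters of neighbors. Both Cdkn2c regions gained from WT, and those gained from Tet2-/- other than that 3.002 kb from the first start, lay at the 9630013D21Rik promoter. That promoter was 1 region when all 4 lists were merged. A Cdkn1b region lay at the Lockd promoter.

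The effect of Tet2 was compared in the same way. From WT to Tet2-/-, 8 of 32 H3K27ac regions were lost (25.0%, 11.5 to 43.4), against 35.6% of all, and 6 of 30 were gained (20%, 7.71 to 38.6), against 20.3%. From Ep300Δ/Δ to Ep300Δ/ΔTet2-/-, 3 of 33 were lost (9.09%, 1.92 to 24.3), against 31.2%, and 2 of 32 were gained (6.25%, 0.766 to 20.8), against 18.5%. The lost regions of the latter were 2 at Cdkn1a, among them the one downstream of the internal start, and 1 at Ccnd2. These comparisons share their lists with those above and are not independent of them.

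**Figure D5:**
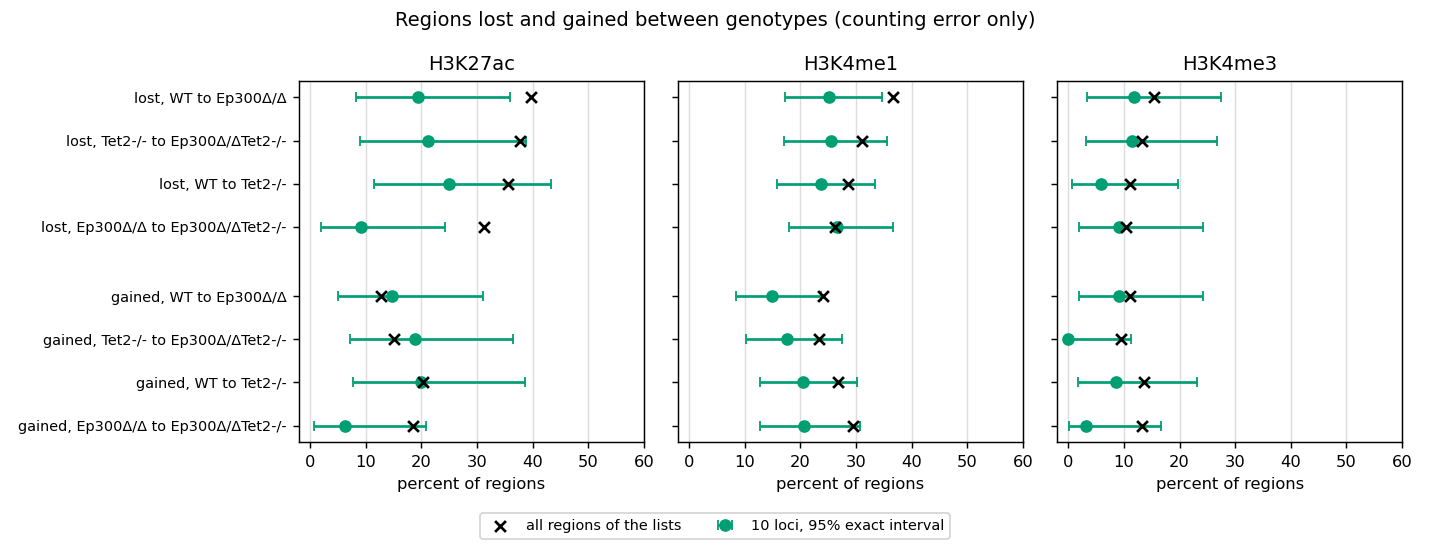
Percent of regions lost or gained between genotypes for each mark; green points with bars are the 10 loci with exact 95% intervals for counting error, and crosses are all regions of the 2 lists. For H3K27ac the lost share at the 10 loci lies below the cross in each of the 4 comparisons, from 9.09% to 25.0%.

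H3K4me1 regions were more numerous, and their lost and gained shares were below those of all regions but for 1 of the 8 shares. From WT to Ep300Δ/Δ, 27 of 107 were lost (25.2%, 17.3 to 34.6), against 36.7% of all, and 14 of 94 were gained (14.9%, 8.39 to 23.7), against 24.1%. From Tet2-/- to Ep300Δ/ΔTet2-/-, 24 of 94 were lost (25.5%, 17.1 to 35.6), against 31.1%, and 15 of 85 were gained (17.6%, 10.2 to 27.4), against 23.4%. For Tet2 loss, 23 of 97 were lost on the Ep300 floxed background (23.7% against 28.6%) and 25 of 94 after Ep300 deletion (26.6% against 26.2%), and 19 of 93 and 18 of 87 were gained (20.4% against 26.8%, and 20.7% against 29.5%). H3K4me3 was compared in the same way. From WT to Ep300Δ/Δ, 4 of 34 were lost (11.8%, 3.30 to 27.5), against 15.4%, and 3 of 33 were gained (9.09%, 1.92 to 24.3), against 11.1%. From Tet2-/- to Ep300Δ/ΔTet2-/-, 4 of 35 were lost (11.4%, 3.20 to 26.7), against 13.3%, and 0 of 31 were gained, which allows a share of up to 11.2%, against 9.45%. For Tet2 loss, 2 of 34 and 3 of 33 were lost (5.88% against 11.1%, and 9.09% against 10.3%), and 3 of 35 and 1 of 31 were gained (8.57% against 13.6%, and 3.23% against 13.2%). Of 17 merged H3K4me3 regions at the genes' own promoters, 16 were present in all lists, and the exception was a 202 bp region at -0.40 kb of Cdkn1c in Ep300Δ/Δ.

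Counted by gene, covered H3K27ac fell at least 2-fold at 1 of 7 loci that had at least 500 bp in either list from WT to Ep300Δ/Δ (Cdkn1a), where 22.5% of coding genes fell, and rose at 0, where 0.697% rose. From Tet2-/- to Ep300Δ/ΔTet2-/- it fell at 2 (Cdkn1a and Ccnd1), where 13.5% fell, and rose at 0, where 2.58% rose. For Tet2 loss it changed 2-fold at 0 of 7 loci in either comparison, where 9.76% and 5.23% of genes fell and 2.80% and 6.73% rose. In lists of equal size, 0 loci fell from WT to Ep300Δ/Δ and 1 (Ccnd1) from Tet2-/- to Ep300Δ/ΔTet2-/-, so that neither Cdkn1a call was kept. The 22 other cell cycle genes, 21 of which could be tested, had 6 that fell from WT to Ep300Δ/Δ (Cdk2, Cdk6, Ccne1, Rb1, E2f4, and E2f8) and 1 that fell from Tet2-/- to Ep300Δ/ΔTet2-/- (Cdc25a), and 0 rose.

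The genes with the most similar covered lengths over the 12 lists were found by Euclidean distance of log2(covered bp + 100). They were Zbtb4 for Ccnd2 (distance 0.48), 3110082I17Rik for Ccnd3 (0.61), Rin1 for Ccnd1 (0.63), Vat1 for Cdkn1a (0.63), and Hist1h2bg for Cdkn1b (0.81). Vat1 had 4970, 2591, 3595, and 1727 bp of H3K27ac in the order WT, Ep300Δ/Δ, Tet2-/-, and Ep300Δ/ΔTet2-/-, close to Cdkn1a in each list.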

How the data were processed

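ChIP-Seq peak lists for 3 marks in 4 genotypes were analysed, with 1 library each; the other 8 samples (H3 and H3K27me3) were not analysed here. Per the study's methods and the submitters' processing notes, reads were trimmed with cutadapt 1.15, aligned to mm10 with BWA 0.7.13, and filtered with Picard, and peaks were called with MACS2 2.1.1.20160309 against H3 and kept where found in pseudo-replicates. Drosophila spike-in chromatin was added, but the lists are not stated to be scaled to it. The authors deposited for each peak its position, summit, fold enrichment (a ratio over H3), -log10 p, -log10 q, and a score, which was not used. A q threshold of 0.05 was stated, yet the deposited -log10 q column holds values under 1.3.

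Gene bodies came from the GENCODE annotation, extended by 20 kb; promoters were 3000 bp around starts. Lists were merged in pairs (overlap of at least 1 bp) to count lost and gained regions, and all 4 lists of a mark were merged for presence patterns. Covered length was compared where at least 500 bp were covered in either list, and a 2-fold difference was called. Scripts used Python 3.11.15, numpy 2.4.6, scipy 1.17.1, and pysam 0.24.0, and were tested on simulated data. The named genes are the 10 members, their promoter regions, the H3K27ac regions outside promoters that differ between genotypes, and for 5 of them the gene of most similar pattern. Members and lists were chosen with earlier results of these data known. The p53 search, the comparison of D cyclin with inhibitor loci, and the stricter and equal-size versions of the merged regions were chosen after seeing the data. Alternatives changed the overlap rule, the q limit, list size, window, promoter, and fold. The sequence of 1 region is not reported here.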

Additional observations from a re-analysis of the deposited data

Results flagged for a closer look

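A total of 4 regions were present in Ep300Δ/Δ and in Tet2-/- but absent from WT and Ep300Δ/ΔTet2-/-, so that deletion of Ep300 went with a gain in one Tet2 background and a loss in the other. These differences were not tested, since each list is 1 library. They were an H3K4me1 region at -0.995 kb of the Arf start of Cdkn2a (percentiles 10.8 in Ep300Δ/Δ and 28.5 in Tet2-/-), an H3K4me1 region 16.246 kb from the first start of Cdkn2d near Kri1 (49 and 21.5), an H3K4me1 region 11.692 kb from the first start of Ccnd1 (34.3 and 5.28), and an H3K4me3 region 9.781 kb from the first start of Ccnd2 (15.6 and 19.7). These were 3 of 126 H3K4me1 regions (2.38%, against 1.99% of all regions) and 1 of 39 H3K4me3 regions (2.56%, against 0.857%), so the H3K4me1 share was near that of all regions. For H3K27ac it was 0 of 39, against 0.973% of all. The opposite pattern was found at 0 regions, against 1.32% of all regions for H3K27ac, 2.19% for H3K4me1, and 0.721% for H3K4me3.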

How the results depend on the processing

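No paired analysis was possible because every list carries the same single replicate number. Of 192 alternative values of the lost and gained shares, 173 lay inside the 95% interval of the reported value. The share of all regions under the same setting follows each value below. For H3K27ac, the share lost from WT to Ep300Δ/Δ was 7.89% (all 29.9%) where peaks within 500 bp counted as shared, and 36.4% (all 45.8%) with -log10 q of at least 5, where the gained share was 4.55% (all 4.46%). From Tet2-/- to Ep300Δ/ΔTet2-/- the lost share was 7.69% (all 23.5%) in lists of equal size. From Ep300Δ/Δ to Ep300Δ/ΔTet2-/- it was 0 of 26 (all 21.4%) in lists of equal size, and the gained share was 23.1% (all 25.2%) with the stricter q. For H3K4me1, the 500 bp rule gave lost and gained shares of 15.9% (all 23.5%) and 7.77% (all 13.8%) from WT to Ep300Δ/Δ, 16.0% (all 19.9%) and 9.68% (all 14.4%) from Tet2-/- to Ep300Δ/ΔTet2-/-, and 13.8% (all 17.2%) and 6.93% (all 16.3%) from WT to Tet2-/-. The stricter q gave 36.8% lost (all 51.0%) from WT to Ep300Δ/Δ, 14.8% lost (all 23.6%) and 30.7% gained (all 37.3%) from WT to Tet2-/-, and 36.9% gained (all 43.5%) from Ep300Δ/Δ to Ep300Δ/ΔTet2-/-. For H3K4me3, 0 were lost from WT to Tet2-/- without the Ccnd3 locus (all 11.1%), and 0 were gained from Ep300Δ/Δ to Ep300Δ/ΔTet2-/- with the stricter q (all 10.1%) or without Ccnd3 (all 13.2%). The lost H3K27ac share lay below that of all regions in 36 of 36 settings and comparisons, and the gained share in 18 of 36. The lost share lay below in 29 and above in 7 of 36 for H3K4me1 and likewise for H3K4me3, and the gained share lay below in 36 and 35 of 36.

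Loci whose covered H3K27ac fell from WT to Ep300Δ/Δ numbered 2 with the stricter q or a fold of 1.5 (Cdkn1a and Ccnd3) and 0 in lists of equal size. From Tet2-/- to Ep300Δ/ΔTet2-/- they numbered 1 in lists of equal size (Ccnd1) and 1 in a window of 10 kb (Cdkn1a), and from Ep300Δ/Δ to Ep300Δ/ΔTet2-/- 1 at a fold of 1.5 (Ccnd1). All 24 alternative promoter counts were within 1.5 times the reported ones. Of the 39 merged H3K27ac regions, 26 kept their pattern with the stricter q and 21 in lists of equal size. The cause of these changes was not tested.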
